A study of Mus musculus with 48 samples.

Results

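Acute phase proteins are plasma proteins whose level shifts when tissue is injured or infected. The members described here are 10 genes of positive acute phase proteins, whose level goes up in such a response: the serum amyloid A genes *Saa1* and *Saa2*, the orosomucoid genes *Orm1* and *Orm2*, *Hp*, *Hpx*, *Lcn2*, *Crp* and the fibrinogen chain genes *Fgb* and *Fgg*. They were chosen by name, and every probe whose accession belonged to one of these symbols was taken, which gave 11 of the 41174 probes of the array and 10 of its 18434 named genes. *Saa1* had 2 probes and each other member had 1. Of the *Saa1* probes, the brighter was used. The other gave the same sign in the comparison of liver with colon and in the comparisons of HH with each other diet group.

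Most circulating acute phase protein is made by hepatocytes. Interleukin 6 acts through its receptor and STAT3, interleukin 1 and tumour necrosis factor act through NF-kappa B, and factors of the C/EBP family act with both on the promoters of these genes. The gut makes some of the same proteins locally, and adipocytes are a known source of haptoglobin and orosomucoid.

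The mice were C57/BL6 offspring aged 12 weeks. All of them, and their dams, ate a high-fat diet. Diet H was supplemented with selenium and folate and diet L was marginally deficient in both. HH offspring had diet H throughout, and LL offspring had diet L throughout. HL offspring came from dams on diet H, fed from before mating to the end of lactation, and ate diet L after weaning. LH offspring came from dams on diet L and ate diet H after weaning. Liver RNA came from 5 HH, 6 HL, 6 LH and 6 LL mice, and RNA of the colon came from 6 mice of each group. No sample number in the labels was shared by the tissues, so the labels do not tell whether the same mice gave both. The third and sixth HH liver arrays held RNA of the same animal and were averaged. The RNA of each mouse was labelled with Cy3 and set against a common reference labelled with Cy5, so each value is a log2 ratio of mouse over reference. A ratio of 0 means a level equal to that of the reference, and ratios of different genes are not levels that can be ranked against each other. The sources describe the reference differently, either as intestinal and liver RNA in a pool or as RNA from an entire pregnant mouse with its foetus. The question asked of the diets was whether selenium and folate in the dam's diet, or after weaning, changed expression in the offspring.

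Between 55.1 and 66% of the spots of a liver array, and between 66.8 and 73.7% of those of a colon array, were well above background in Cy3. All 10 members were well above background on the 24 liver arrays except *Lcn2*, which was on 23. In the colon *Lcn2* was on 22 of 24 arrays, *Crp* on 11 and the other 8 on all 24. No member was saturated. The 7 hepatocyte markers measured, among them *Alb* and *Ttr*, were all higher in the liver than in the colon, and the 6 goblet cell and 6 smooth muscle markers were all higher in the colon. Although the study describes male offspring, the log2 Cy3 signal of *Xist*, a transcript of the female inactive X, was 9.54 to 13.29 on 6 colon arrays and 9.82 to 12.46 on 2 liver arrays, against at most 8.12 on the others. Those arrays were of colon HH replicates 1 and 5, HL replicate 5 and LL replicates 1, 3 and 5, and of liver HL replicate 2 and LL replicate 6. Values without those mice stand beside the results below that they moved most. The mean of 8 adipocyte genes was 1.55 in LH liver replicate 4 and at most -0.41 in the other livers, and that of 6 lymphoid genes was 0.94 in LL colon replicate 4 and at most 0.16 in the other colons. Leaving out either mouse changed no call.

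The promoters of 5 members are printed for the reasons that follow, and those of *Crp*, *Hpx* and *Lcn2* are not printed. *Saa1* and *Saa2* are near copies that varied together from mouse to mouse, *Orm2* and *Fgb* lay at opposite ends of the comparison of HH with LH, and *Fgg* is another fibrinogen chain gene of the cluster that holds *Fgb*. Each sequence is the 250 bases before the gene start in RefSeq's annotation of GRCm38.p6, on the strand of the gene. Capitals mark matches on either strand to TTGCNNAA (a C/EBP-type motif), CTGGGAA (a motif of interleukin 6 response elements) or TTCNNNGAA (a STAT-type motif). The promoter of *Crp*, which also differed between HH and LH at an unadjusted p, matched none of these motifs. The table used here held no promoter of *Orm1* or *Hp*.

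Saa1: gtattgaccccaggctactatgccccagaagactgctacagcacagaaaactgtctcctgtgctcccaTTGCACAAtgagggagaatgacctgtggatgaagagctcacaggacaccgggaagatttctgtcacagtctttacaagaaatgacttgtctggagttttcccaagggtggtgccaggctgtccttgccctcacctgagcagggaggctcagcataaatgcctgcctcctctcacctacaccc

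Saa2: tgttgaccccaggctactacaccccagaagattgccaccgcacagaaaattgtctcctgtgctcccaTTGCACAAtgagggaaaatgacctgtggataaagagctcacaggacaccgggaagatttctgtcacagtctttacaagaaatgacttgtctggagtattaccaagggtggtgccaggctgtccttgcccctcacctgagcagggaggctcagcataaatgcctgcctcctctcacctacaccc

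Orm2: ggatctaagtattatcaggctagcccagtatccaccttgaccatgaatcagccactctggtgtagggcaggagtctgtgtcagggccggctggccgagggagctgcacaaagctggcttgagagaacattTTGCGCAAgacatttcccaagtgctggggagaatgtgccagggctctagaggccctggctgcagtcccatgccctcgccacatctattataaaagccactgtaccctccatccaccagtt

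Fgb: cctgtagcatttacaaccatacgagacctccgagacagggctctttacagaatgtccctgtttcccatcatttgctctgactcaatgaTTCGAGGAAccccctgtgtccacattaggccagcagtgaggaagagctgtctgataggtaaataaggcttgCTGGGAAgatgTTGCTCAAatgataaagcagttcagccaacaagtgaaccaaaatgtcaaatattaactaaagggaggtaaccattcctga

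Fgg: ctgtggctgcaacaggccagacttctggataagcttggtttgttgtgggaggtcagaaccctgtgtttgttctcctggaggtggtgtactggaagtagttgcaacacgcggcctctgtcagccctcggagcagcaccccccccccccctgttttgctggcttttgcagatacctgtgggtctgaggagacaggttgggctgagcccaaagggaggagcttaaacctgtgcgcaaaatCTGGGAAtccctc

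The *Saa1* sequence is chr7:46742981-46743230 on the minus strand, and lies partly inside the gene's full span of 46740497 to 46743181 because the span includes a transcript with an earlier start. The *Saa2* sequence is chr7:46751583-46751832 on the plus strand. Both hold TTGCACAA, starting 182 bases before the start of *Saa1* and 183 bases before that of *Saa2*, and 238 of 251 aligned columns were identical (94.8%). The *Orm2* sequence is chr4:63362199-63362448 on the plus strand and holds TTGCGCAA starting 120 bases before the gene. The *Fgb* sequence is chr3:83049864-83050113 on the minus strand. It was the only one of the 8 member promoters with a match to each of the 3 motifs, which start 162 bases (TTCGAGGAA), 91 bases (CTGGGAA) and 80 bases (TTGCTCAA) before the gene. The *Fgg* sequence is chr3:83007474-83007723 on the plus strand, with CTGGGAA starting 13 bases before the gene. *Fgb* and *Fgg* promoters shared 46.7% of aligned columns.

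TTGCNNAA was present in 6 of the 8 member promoters (*Saa1*, *Saa2*, *Orm2*, *Hpx*, *Lcn2* and *Fgb*) and in 9.56% of 32851 promoters of the same length. CTGGGAA was present in 2 of 8 (*Fgb* and *Fgg*) against 9.1%, and TTCNNNGAA in 1 of 8 (*Fgb*) against 7.02%. No motif overlapped another in the sequences shown. These matches describe letters and not bound sites. Along the chromosomes, *Saa1* and *Saa2* are 8651 bases apart, *Orm1* and *Orm2* 14285 bases apart and *Fgg* and *Fgb* 27189 bases apart. *Hpx* lies on chromosome 7 (105591611 to 105600116), *Hp* on chromosome 8 (109575128 to 109579172), *Lcn2* on chromosome 2 (32384637 to 32387739) and *Crp* on chromosome 1 (172698056 to 172699966).

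The liver had far more RNA than the colon of 7 members, while *Saa1* and *Saa2* were higher in the colon and *Lcn2* was moderately higher in the liver. A probe was called when limma's moderated test gave a Benjamini-Hochberg adjusted p under 0.05 over all probes together with a fold change over 1.5. By this rule 8 of the 10 members were called higher in the liver, where 14.6% of all probes were, and 2 of 10 were called higher in the colon, where 15.7% of all probes were. The median difference of liver minus colon was 6.07 over the members and 0.01 over all probes. Liver and colon arrays lay on different slides, scanned on different days, so tissue and slide cannot be told apart. In bulk RNA, fewer cells of a type and less RNA per cell cannot be told apart either.

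**Figure D1:**
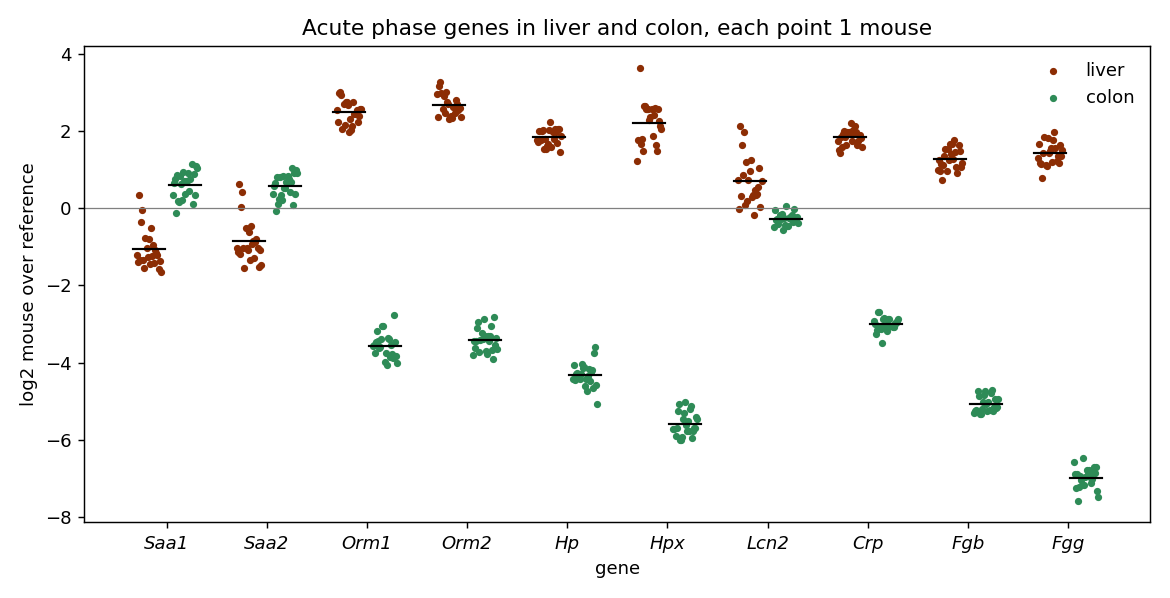
Log2 ratio of mouse over reference (vertical axis) of each acute phase gene (horizontal axis) in 23 livers (brown) and 24 colons (green). Each point is 1 mouse and black lines are means over mice. The liver points lie above all colon points for *Orm1*, *Orm2*, *Hp*, *Hpx*, *Crp*, *Fgb* and *Fgg*, and the colon means of *Saa1* and *Saa2* lie above their liver means.

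Serum amyloid A proteins travel on high-density lipoprotein during an acute phase. *Saa1* ranged from -1.64 to 0.33 in the livers (median -1.21) and from -0.13 to 1.14 in the colons (median 0.70). The livers lay below the reference in all but the highest mouse, most colons lay above it, and the ranges overlapped. The difference of liver minus colon was -1.66 on the log2 scale (SE 0.15, adjusted p = 3.8e-13 by limma), which is 3.17-fold higher in the colon. *Saa2* ranged from -1.55 to 0.63 in the livers and from -0.07 to 1.05 in the colons. Its difference was -1.42 (SE 0.17, adjusted p = 3.02e-10), or 2.67-fold higher in the colon. Without the mice with *Xist* these differences were -1.52 and -1.28. *Saa3*, a serum amyloid A gene known chiefly from macrophages, adipocytes and epithelia, had the same direction (-1.83, SE 0.16). Since *Saa1* and *Saa2* are near-identical copies, how much each probe reads of the other gene's RNA was not tested.

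The orosomucoids, acidic glycoproteins that bind lipophilic molecules, were 66.6-fold (*Orm1*) and 67.6-fold (*Orm2*) higher in the liver, with log2 differences of 6.06 (SE 0.11) and 6.08 (SE 0.10). Haptoglobin, which binds free haemoglobin, and haemopexin, which binds free haem, were 71.2-fold (*Hp*) and 220-fold (*Hpx*) higher in the liver. *Crp*, a pentraxin that is only a modest acute phase reactant in mice, was 28.4-fold higher (log2 difference 4.83). Its colon signal was well above background on 11 of 24 arrays, so that level is known less well, and the difference ranged from 4.18 to 7.01 over the settings tried. The fibrinogen chains, which form the clot, were 80.7-fold (*Fgb*) and 334-fold (*Fgg*) higher. The 7 genes of this paragraph had adjusted p-values of at most 3.41e-39 and no overlap between the tissues. How large a share of all probes had no such overlap is not given here.

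Lipocalin 2, which binds bacterial siderophores and is made by neutrophils and epithelia as well as hepatocytes, stood between these groups. *Lcn2* ranged from -0.17 to 2.13 in the livers (median 0.54) and from -0.56 to 0.06 in the colons (median -0.28). Several livers lay within the range of the colons. It was 1.98-fold higher in the liver (log2 difference 0.99, SE 0.18, adjusted p = 3.28e-06). With the processed signals of the scanner software the difference was 1.92, the largest of the settings tried, and the smallest was 0.79.

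Other genes of the response followed either organ. Of 24 other positive acute phase genes measured, 19 were called higher in the liver, among them the third fibrinogen chain *Fga* (35.1-fold) and *Orm3*, whose colon signal was well above background on 1 of 24 arrays. The 5 called higher in the colon were *Saa3*, the metallothioneins *Mt1* and *Mt2*, the interleukin 1 receptor antagonist *Il1rn* and the endotoxin coreceptor *Cd14*. All 12 negative acute phase genes, whose products decline in a response, were called higher in the liver. Of the factors and receptors, *Cebpa*, *Cebpb*, *Hnf4a*, *Foxa2*, *Il6ra*, *Il1rap* and *Lifr* were called higher in the liver, whereas *Cebpd*, *Nfkbiz*, *Jak2*, *Osmr* and *Il10rb* were called higher in the colon.

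In the liver, offspring of dams on diet L that ate diet H (LH) had more *Fgb*, *Fgg* and *Crp* and less *Orm1* and *Orm2* RNA on average than HH offspring, but none of these differences passed the test after adjustment over all probes. By limma, 0 of the 10 members and 0% of 41171 probes were called for HH *vs.* LH. At an unadjusted p under 0.05 there were 5 members, where 12% of all probes were below that value. The members did not share a direction. The median of LH minus HH over the 10 was -0.09. These p-values set the difference between group means against the spread between mice within a group. The labels do not say which offspring shared a dam, so each mouse was treated as separate and litter was not in the fit.

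**Figure D2:**
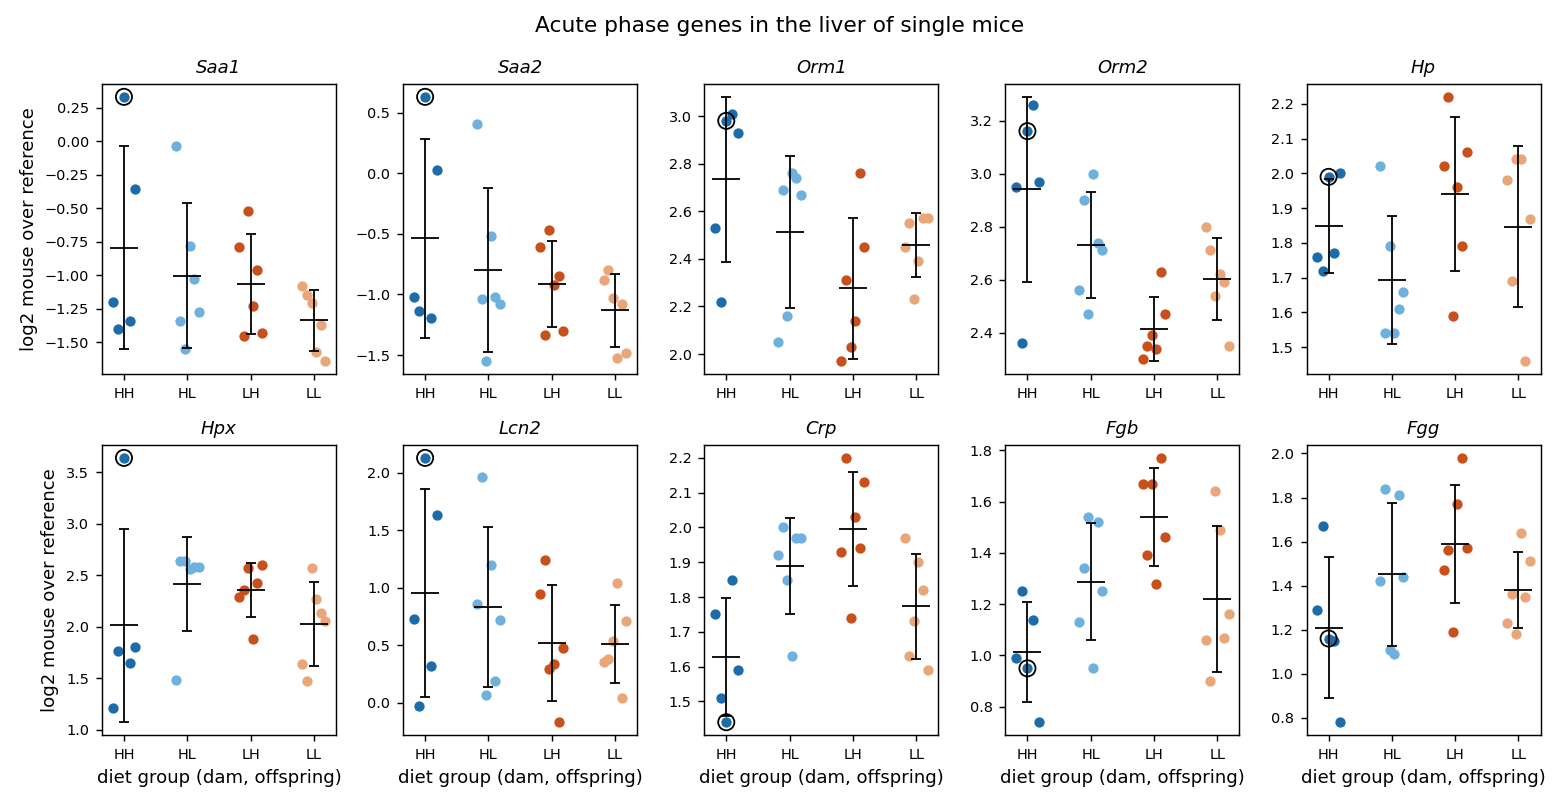
Log2 ratio of mouse over reference (vertical axis) of the 10 genes in the liver of single mice by diet group (horizontal axis), with the mean and SD in black. The ring marks HH replicate 3, the highest of 23 mice for *Saa1*, *Saa2*, *Hpx* and *Lcn2* and the lowest for *Crp*; for *Fgb* all LH mice (1.28 to 1.77) lie above all HH mice (0.74 to 1.25).

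*Fgb* was at 0.99, 1.25, 0.95, 1.14 and 0.74 in the livers of HH replicates 1 to 5. In LH the lowest mouse was at 1.28, the median at 1.56 and the highest at 1.77. All LH mice were thus above all HH mice, and *Fgb* was the only member whose HH and LH ranges did not overlap. The share of all probes with such ranges is not given here, so this count could not be set against it. The difference of LH minus HH was 0.52 (1.44-fold, SE 0.13, unadjusted p = 0.000645, adjusted p = 0.197 by limma), and LH was higher on 6 of 6 slides. The 6 slides hold 5 HH mice, since HH replicate 3 is on 2 of them, and this holds for each count of slides given here. HL mice ranged from 0.95 to 1.54 and LL mice from 0.90 to 1.64, so both overlapped HH and LH. In order of their means, the groups were HH (1.01 ± 0.19, SD), LL (1.22 ± 0.28), HL (1.29 ± 0.23) and LH (1.54 ± 0.19), and neighbours in this order overlapped. With the processed signals of the scanner software in place of the intensities, the difference was 0.21 (unadjusted p = 0.0742).

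*Fgg*, which encodes another chain of fibrinogen, was at 1.29, 1.67, 1.16, 1.15 and 0.78 in HH. In LH it ranged from 1.19 to 1.98 with a median of 1.56. The groups overlapped, since HH replicates 1 and 2 lay within the LH range, and LH was higher on 5 of 6 slides. The difference was 0.38 (SE 0.16, unadjusted p = 0.0244, adjusted p = 0.341). The third chain, *Fga*, which was not among the members, differed by 0.84 (SE 0.24, unadjusted p = 0.00232, adjusted p = 0.237).

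*Crp* was at 1.75, 1.51, 1.44, 1.85 and 1.59 in HH, and ranged from 1.74 to 2.20 in LH with a median of 1.99. HH replicates 1 and 4 reached into the LH range and the other 3 lay below it. The difference was 0.37 (SE 0.09, unadjusted p = 0.00074, adjusted p = 0.203), with LH higher on 6 of 6 slides. HL was also higher than HH, by 0.26 (unadjusted p = 0.0111, adjusted p = 0.952), with HL higher on 5 of 6 slides. In order of their means the groups were HH (1.63 ± 0.17, SD), LL (1.77 ± 0.15), HL (1.89 ± 0.14) and LH (2.00 ± 0.16), and neighbours in this order overlapped. *Crp* had the least spread of the members, with a within-group SD of 0.16 against a median of 0.17 over all probes.

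The orosomucoids went the other way. *Orm2* was at 2.95, 2.36, 3.16, 3.26 and 2.97 in HH, whereas LH ranged from 2.30 to 2.63 with a median of 2.37. Only HH replicate 2 lay within the LH range, and LH was lower on all 6 slides. The difference was -0.53 (1.44-fold lower in LH, SE 0.13, unadjusted p = 0.000347, adjusted p = 0.19). In order of their means the groups were LH (2.41 ± 0.12, SD), LL (2.60 ± 0.15), HL (2.73 ± 0.20) and HH (2.94 ± 0.35), and neighbours in this order overlapped. *Orm1* was at 2.53, 2.22, 2.98, 3.01 and 2.93 in HH and ranged from 1.97 to 2.76 in LH with a median of 2.23. HH replicates 3, 4 and 5 lay above every LH mouse. The difference was -0.46 (SE 0.16, unadjusted p = 0.00953, adjusted p = 0.284). *Orm3* had a difference of -0.76 (SE 0.23, unadjusted p = 0.00333, adjusted p = 0.241). The 3 orosomucoid genes are related in sequence, and how much their probes read of each other's RNA was not tested.

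The serum amyloid A genes and *Lcn2* varied widely within the diet groups. *Saa1* was at -1.20, -1.40, 0.33, -1.34 and -0.36 in HH, and *Saa2* at -1.02, -1.14, 0.63, -1.19 and 0.03. HH replicates 3 and 5 stood above the other 3 for both genes. In LH, *Saa1* ranged from -1.45 to -0.52 and *Saa2* from -1.33 to -0.47. Their differences of LH minus HH were -0.27 (95% interval -0.84 to 0.31, unadjusted p = 0.348) and -0.38 (-1.03 to 0.28, unadjusted p = 0.247). The second *Saa1* probe gave -0.30 (unadjusted p = 0.337). The *Saa1* value of HH replicate 3 rests on 1 of its 2 arrays, because the brighter probe had no value on the other.

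*Lcn2* was at 0.73, -0.03, 2.13, 0.32 and 1.63 in HH and ranged from -0.17 to 1.24 in LH with a median of 0.41. HH replicates 3 and 5 were again above every LH mouse, and the other 3 lay within the LH range. The difference was -0.43 (95% interval -1.16 to 0.30, unadjusted p = 0.231). *Hpx* was at 1.21, 1.76, 3.64, 1.65 and 1.80 in HH and ranged from 1.88 to 2.60 in LH. Apart from HH replicate 3, every HH mouse was below every LH mouse, and the difference with all mice was 0.34 (-0.30 to 0.98, unadjusted p = 0.279). *Hp* differed by 0.09 (-0.15 to 0.34, unadjusted p = 0.438).

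HH replicate 3, the mouse measured on 2 arrays, decided several of these values. It was the highest of the 23 liver mice for 4 of the 10 members (*Saa1*, *Saa2*, *Hpx* and *Lcn2*), the second for *Orm1* and *Orm2*, and the lowest for *Crp*. Over all probes with a value in every mouse, it was the highest for 7.15% and the lowest for 6.49%. Its arrays gave like values, 0.67 and 0.58 for *Saa2*, 3.74 and 3.53 for *Hpx* and 2.02 and 2.25 for *Lcn2*. It was also the highest for *Saa3*, *Apcs*, *Il1rn*, *Cd14* and *Serpina10* and the lowest for *Saa4*, *Hamp2* and *Lrg1* of the 24 other positive acute phase genes, and the lowest for *Rbp4*, *Fetub* and *Apoh* and the highest for none of the 12 negative ones. It was the highest for *Il6*, *Il1a*, *Il1b* and *Tnf* of 7 cytokines, for 4 of 7 Kupffer cell markers and 4 of 10 neutrophil markers. It was the lowest for 2 neutrophil markers (*Ltf* and *Mpo*). Some of these ranks rest on dim signals. Of the 24 liver arrays, *Il1b* was well above background on 24, *Il1a* on 15, *Il6* on 10, *Tnf* on 3 and the neutrophil marker *Camp* on 2. It was neither the highest nor the lowest for any of the 7 hepatocyte, 7 colonocyte or 6 smooth muscle markers. Other lists held such ranks as well. The highest ranks included *Osmr* and *Il10rb* of 10 cytokine receptors, *Tyk2* and *Nfkbiz* of 15 signalling genes, and *Hmox1* of 8 scavenger and receptor genes. In that last list *Asgr1* and *Asgr2* had their lowest values in this mouse. HH replicate 3 was the highest for 3 of 7 liver endothelial and stellate markers and for 2 of 6 bile duct cell markers. It was also the highest for 1 of 6 goblet cell and 1 of 8 adipocyte markers, and the lowest for 2 of 6 lymphoid markers. The part of these cells and cytokines in the levels of the members was not tested.

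Without this mouse, a setting chosen after seeing the data, the HH mean of *Saa1* went from -0.79 to -1.08, of *Saa2* from -0.54 to -0.83, of *Lcn2* from 0.95 to 0.66 and of *Hpx* from 2.01 to 1.61. The differences of LH minus HH were then 0.01 for *Saa1*, -0.08 for *Saa2* and -0.14 for *Lcn2*. For *Hpx* the difference was 0.75 (1.68-fold, SE 0.22, unadjusted p = 0.00262, adjusted p = 0.208), and HL minus HH was 0.81 (unadjusted p = 0.00137, adjusted p = 0.757). With it left out, 6 members had an unadjusted p under 0.05 for HH *vs.* LH, where 13.9% of probes did, and 0 were called. *Fgb*, *Crp* and *Orm2* kept differences of 0.51, 0.32 and -0.47.

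**Figure D3:**
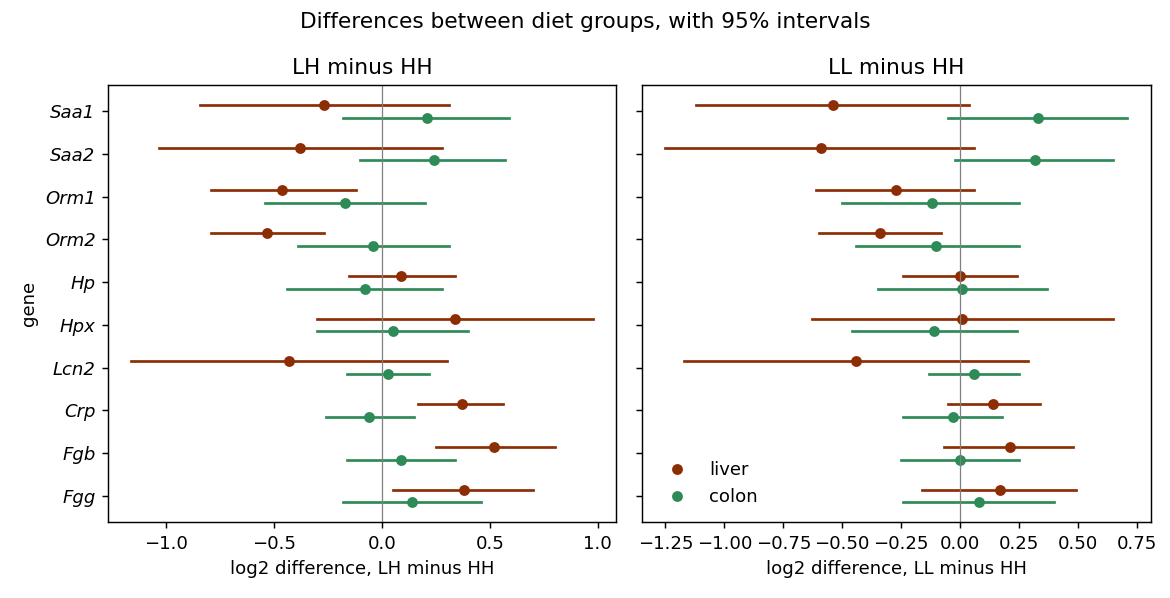
Log2 difference of LH minus HH (left) and LL minus HH (right) on the horizontal axis for each gene on the vertical axis, in liver (brown) and colon (green). Points are differences and lines are 95% intervals; in the liver the intervals of *Orm1*, *Orm2*, *Crp*, *Fgb* and *Fgg* leave out 0 for LH, that of *Orm2* does for LL, and all colon intervals hold 0.

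Diet L after weaning alone, or throughout, gave fewer differences. These comparisons share the HH mice with the previous one. For HH *vs.* HL, 1 member (*Crp*) had an unadjusted p under 0.05, where 4.38% of probes did, and for HH *vs.* LL 1 member did, where 3.45% of probes did. That member was *Orm2*, lower in LL with a difference of -0.34 (SE 0.13, unadjusted p = 0.013, adjusted p = 1). Without the mice with *Xist* it was -0.29 (unadjusted p = 0.0376). *Saa1* and *Saa2* had larger differences of LL minus HH with wider errors, -0.54 (SE 0.28, unadjusted p = 0.0643) and -0.59 (SE 0.32, unadjusted p = 0.0732). Without HH replicate 3 they were -0.26 and -0.30, and without the mice with *Xist* -0.48 and -0.52. In both comparisons 0 members and 0% of probes were called. The counts at an unadjusted p rested on single mice. Without HH replicate 2 they were 5 for HH *vs.* HL and 4 for HH *vs.* LL, without HH replicate 1 or HL replicate 1 the count for HH *vs.* LL was 3, and without HH replicate 4 both were 2. Leaving out HH replicate 3, HL replicate 1 or 4, LH replicate 4 or LL replicate 2, 3 or 4 gave 2 for HH *vs.* HL. Without HH replicate 3, 6.28% of all probes were under that p for HH *vs.* HL and 3.88% for HH *vs.* LL. For the other mice left out, the share of all probes is not given here, so their counts could not be set against it.

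The 4 groups were also read as a factorial design. For the dam's diet, the mean of LH and LL was set against that of HH and HL. Here 3 members had an unadjusted p under 0.05, where 4.14% of probes did: *Orm2* (-0.33, unadjusted p = 0.000974), *Fgb* (0.23, unadjusted p = 0.0202) and *Orm1* (-0.25, unadjusted p = 0.0326), each with an adjusted p of 0.999. Without the mice with *Xist*, *Orm2* was at -0.29 (unadjusted p = 0.00439), *Fgb* at 0.24 (unadjusted p = 0.0258) and *Orm1* at -0.25 (unadjusted p = 0.053). With the processed signals *Fgb* was at 0.12 (unadjusted p = 0.138). For the offspring's diet, the mean of HL and LL against that of HH and LH, 0 members had an unadjusted p under 0.05 and 1.37% of probes did.

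The interaction compares the step from diet H to diet L after weaning in offspring of L dams with that in offspring of H dams. For *Crp*, this step was 0.26 upward in offspring of H dams and -0.22 in offspring of L dams, an interaction of -0.49 (unadjusted p = 0.00114, adjusted p = 0.292). *Fgb* (-0.59, unadjusted p = 0.00378), *Fgg* (-0.45, unadjusted p = 0.0495) and *Orm2* (0.40, unadjusted p = 0.0309) also had an unadjusted p under 0.05, so 4 members did where 11.4% of probes did. Among the settings tried, array weights gave *Crp* an adjusted p of 0.0486 at -0.52, which is below the fold change asked for. Without the mice with *Xist* the *Fgg* interaction was -0.40 (unadjusted p = 0.0867), and the other 3 stayed under 0.05. With the processed signals the interaction was -0.18 for *Fgb* (unadjusted p = 0.253) and -0.18 for *Fgg* (unadjusted p = 0.398). Without LL replicate 1 or HH replicate 4 the count was 2, and the share of all probes in those fits is not given here. By all 3 factorial contrasts 0 members and 0% of probes were called.

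Other acute phase genes and the signals upstream of them were counted in the same comparison of HH with LH in the liver, at an unadjusted p under 0.05. Of all 41171 probes 12% were under that p, 2407 higher in LH and 2527 lower. Of the 24 other positive acute phase genes, 7 were higher in LH (*Fga*, *Vnn1*, *Steap4*, *Serpina10*, *C3*, *Itih4* and *C4b*) and 2 were lower (*Orm3* and *Cd14*), with a median of 0.15. Of the 12 negative acute phase genes, 3 were higher (*Serpina6*, *Gc* and *Apoh*) and 0 lower, with a median of 0.26. Positive and negative acute phase genes thus included genes higher in LH alike.

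Among 7 cytokines, *Il1b* was lower in LH by a difference of -0.79 (SE 0.18, unadjusted p = 0.000198, adjusted p = 0.182). Among 10 receptor genes, *Il6ra*, the ligand-binding chain for interleukin 6 (0.67), *Il1rap* (0.61) and *Lifr* (0.60) were higher, with adjusted p-values of 0.22 to 0.397. Of 15 genes of signalling and transcription factors measured, 2 were higher in LH and 2 were lower at an unadjusted p under 0.05, with a median of 0.12. The genes of that list under this p are not named here. Neither *Stat3* (0.08, unadjusted p = 0.621) nor *Socs3*, a target of STAT3 (-0.10, unadjusted p = 0.432), was among them, and these genes do not stand for the list. Of the 8 scavenger and receptor genes, only *Hmox1*, which breaks down haem, was under that p (-0.52, unadjusted p = 0.0122).

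Some markers of white blood cells were under the same unadjusted p between HH and LH, where 12% of all probes were. The adjusted p-values of those named here were 0.182 to 0.314. The neutrophil genes *S100a8* (-1.29, unadjusted p = 0.000174), *S100a9* (-1.46, unadjusted p = 0.000657) and *Retnlg* (-0.45, unadjusted p = 0.0168) were lower in LH and *Csf3r* was higher (0.53, unadjusted p = 0.00187), out of 10 neutrophil genes with a median of -0.06. Of 7 Kupffer cell markers, *Marco* was lower (-1.08, unadjusted p = 0.0103), and the mean over the list ranged from 1.17 to 2.57 in HH and from 1.18 to 2.31 in LH. HH replicate 3 was the highest liver for *S100a8*, *S100a9*, *Retnlg* and *Marco*, as for *Il1b*, *Hmox1* and *Cd14* above. The differences of these genes without that mouse are not given here. The mean over the 7 hepatocyte markers ranged from 1.51 to 2.04 in HH and from 1.63 to 2.24 in LH, and 0 of the 7 had a p under 0.05. Their part in the differences of the members was not tested.

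In the colon, by the probe used for each gene, no member passed either threshold in any comparison of diets. By limma, 0 members and 0% of 41173 probes were called in each of the 6 comparisons above, and 0 members had an unadjusted p under 0.05. The second *Saa1* probe gave 0.44 for LL minus HH (95% interval 0.03 to 0.85, unadjusted p = 0.0347, adjusted p = 1), against 0.33 (-0.05 to 0.71, unadjusted p = 0.0889) by the probe used. Over all probes that share was 3.24% for HH *vs.* LH, 1.46% for HH *vs.* HL, 1.72% for HH *vs.* LL, 2.11% for the dam's diet, 2.04% for the offspring's diet and 1.79% for the interaction. For HH *vs.* LH the members' differences lay between -0.17 and 0.24, and their 95% intervals between -0.54 and 0.59. The lowest p was that of *Saa2* for the dam's diet (0.0543), with a difference of 0.23. Left out singly, LL replicates 2 and 4 and HH replicate 5 gave 2 members with an unadjusted p under 0.05 for HH *vs.* LL and HH replicate 3 gave 1, and 9 mice gave 1 or 2 for the dam's diet. The share of all probes in those fits is not given here, so these counts could not be set against it.

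*Saa1* in the colon had a mean of 0.44 ± 0.38 in HH, 0.57 ± 0.33 in HL, 0.65 ± 0.20 in LH and 0.77 ± 0.43 in LL (SD, n = 6 each), and all 4 groups overlapped. *Saa2* had the same order of means, 0.41, 0.49, 0.64 and 0.72. Without the mice with *Xist*, 2 of which were HH, 1 HL and 3 LL, the *Saa1* means were 0.36, 0.50, 0.65 and 0.50 and the *Saa2* means 0.32, 0.42, 0.64 and 0.46. LL was then no longer the highest, and LL minus HH was 0.14 for both genes. The step from HH to LL was upward in the colon and downward in the liver. The test of that difference between the organs gave -0.84 for *Saa1* (SE 0.31, unadjusted p = 0.0104) and -0.88 for *Saa2* (unadjusted p = 0.0128), both with an adjusted p of 1. Without HH replicate 3 of the liver it was -0.56 for *Saa1* (unadjusted p = 0.0601) and -0.57 for *Saa2* (unadjusted p = 0.0728), and without the mice with *Xist* -0.64 (unadjusted p = 0.109) and -0.68 (unadjusted p = 0.119). For HH *vs.* LH, the effect in liver minus that in colon was 0.42 for *Crp* (unadjusted p = 0.00198, adjusted p = 0.242), 0.44 for *Fgb* (unadjusted p = 0.00934, adjusted p = 0.3) and -0.48 for *Orm2* (unadjusted p = 0.017, adjusted p = 0.337). The *Orm2* value was 0.00 when local backgrounds were not repaired, and the *Fgb* value was 0.14 with the processed signals.

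How far mice of the same diet differed depended on the member. In the liver the within-group SD was 0.63 for *Lcn2*, 0.56 for *Saa2*, 0.55 for *Hpx* and 0.50 for *Saa1*, above the SD of 99.2, 98.7, 98.5 and 97.6% of all probes. From the lowest to the highest liver, *Hpx* spanned 5.37-fold, *Lcn2* 4.93-fold, *Saa2* 4.51-fold and *Saa1* 3.91-fold, whereas *Hp* spanned 1.69-fold and *Crp* 1.70-fold. In the colon *Lcn2* was among the steadier members, with an SD of 0.16 against a median of 0.16 over all probes, and *Saa1* had the most spread (0.34, above 95.4% of probes).

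Mice high for *Saa1* were high for *Saa2* in both organs. Over the 45 pairs of members in a tissue, Pearson's r and Spearman's rho were tested by 100000 permutations and adjusted over the pairs. The values of a mouse share its array and its reference channel. In the liver *Saa1* and *Saa2* had r = 0.98 and rho = 0.98 (permutation p = 1e-05, the smallest these permutations can give, adjusted p = 0.000225), 0.96 without the 2 mice farthest from the median, 0.98 within diets and 0.99 within slides. *Orm1* and *Orm2* had r = 0.82 and rho = 0.80 (permutation p = 1e-05, adjusted p = 0.000225), 0.79 without 2 mice, 0.75 within diets and 0.96 within slides. These were the 2 pairs past an adjusted p of 0.05 in the liver, and in both the genes are similar and share a cluster.

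The other 43 liver pairs were not past the threshold. *Orm2* and *Fgb* had r = -0.56 (adjusted permutation p = 0.0808), and -0.26 within diets. *Saa2* and *Lcn2*, both high in HH replicate 3, had r = 0.47 (adjusted permutation p = 0.13) with rho = 0.24, and r = 0.25 without 2 mice. The median r over the 45 pairs was 0.10.

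**Figure D4:**
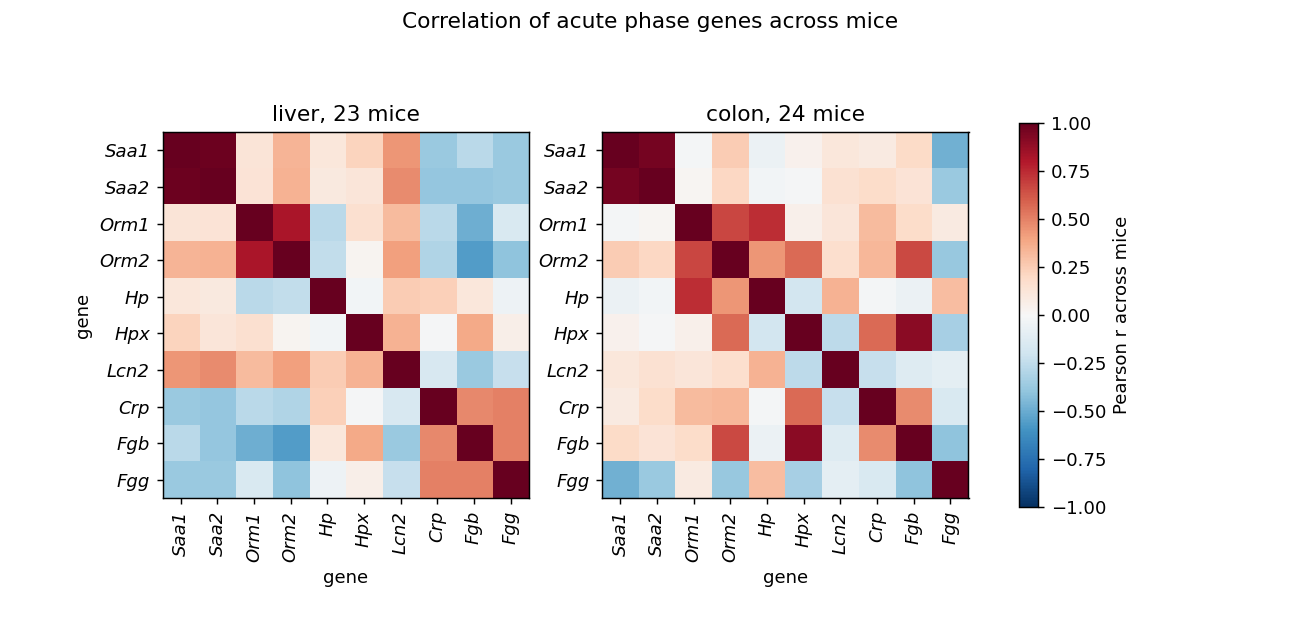
Pearson r between the genes of each pair (horizontal and vertical axes) across 23 livers (left) and 24 colons (right), from -1 (blue) to 1 (red). In the liver only *Saa1* with *Saa2* (0.98) and *Orm1* with *Orm2* (0.82) passed the adjusted threshold; in the colon *Hpx* with *Fgb* (0.90) and *Orm1* with *Hp* (0.74) did as well.

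In the colon 7 pairs passed. *Saa1* and *Saa2* had r = 0.96 and *Orm1* and *Orm2* r = 0.67 (adjusted permutation p = 0.00349), which was 0.49 without 2 mice. *Orm1* and *Hp* had r = 0.74, with 0.66 within slides, and *Hpx* and *Fgb* had r = 0.90 (adjusted permutation p = 0.000225), with 0.71 within slides. The remaining 3 pairs, *Orm2* with *Hpx* (0.57), *Hpx* with *Crp* (0.57) and *Orm2* with *Fgb* (0.66), were 0.28, 0.40 and 0.38 within slides and no longer passed. The last 2 colon slides had higher mean *Hpx* (-5.28 and -5.17) than the other 4 (-5.82 to -5.65) and higher *Fgb* (-4.88 and -4.80 against -5.25 to -5.09).

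*Hp* and *Orm1* in the colon moved with fat cell markers, and *Orm2* did so less clearly. This relation was sought after seeing the data. The mean of 8 adipocyte genes, among them *Adipoq* and *Plin1*, was between -0.84 and 0.55 in 4 colons (HL replicate 6, LH replicate 2 and LL replicates 2 and 6) and between 1.32 and 2.74 in the other 20. Those 4 mice had the 4 lowest *Hp* values, -5.06 to -4.60 against -4.59 to -3.60, and the 4 lowest *Orm1* values, -4.05 to -3.89 against -3.86 to -2.77. Their *Orm2* values, -3.91 to -3.31, overlapped those of the other 20 (-3.80 to -2.82). All 8 adipocyte genes were called higher in the colon than in the liver.

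Within the 20 other colons, *Hp* correlated with the list at r = 0.87 and rho = 0.88 (permutation p = 1e-05, adjusted p = 1e-04 over 10 members). It was 0.84 without the 2 mice farthest from the median, 0.88 within slides and 0.85 within diets. *Orm1* had r = 0.71 (permutation p = 0.00032, adjusted p = 0.0016), rho = 0.61 (adjusted permutation p = 0.0244) and r = 0.63 without 2 mice. *Orm2* had r = 0.56 (adjusted permutation p = 0.0353), but rho = 0.43 (adjusted permutation p = 0.193) and r = 0.33 without 2 mice, against 0.76 within slides and 0.59 within diets. The other 7 members had r between -0.08 and 0.24 and did not pass, *Saa1* among them (0.22, adjusted permutation p = 0.623).

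**Figure D5:**
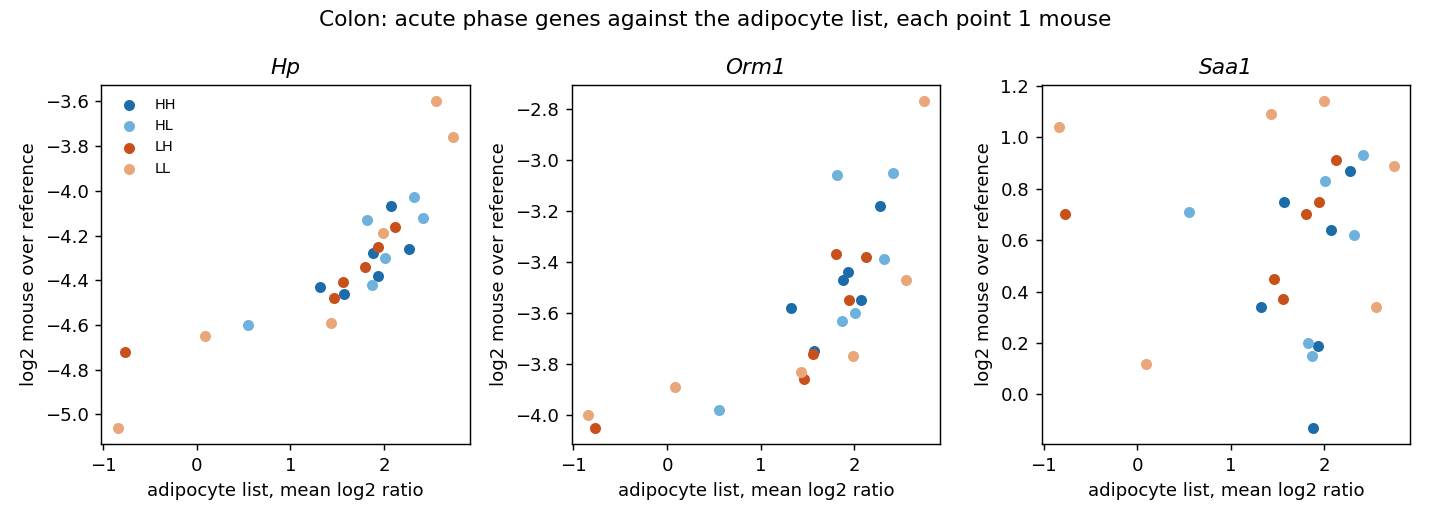
Log2 ratio of mouse over reference of *Hp*, *Orm1* and *Saa1* in the colon (vertical axes) against the mean log2 ratio of 8 adipocyte genes (horizontal axis), each point 1 mouse, coloured by diet group. The 4 mice at the left (-0.84 to 0.55) hold the lowest *Hp* and *Orm1* values, and *Saa1* shows no such order.

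Beyond the lists, the genes whose ratio across mice was most like the mean of the standardized members were *Samd9l* (r = 0.83), *Retreg1* (0.82), *Gusb* (0.79), *Slc25a15* (0.78) and *Aldh1b1* (0.78) in the liver, over 23 mice and 13609 genes compared. In the colon, where *Crp* was left out as too dim, they were *L3hypdh* (0.89), *Ghr* (0.86), *Pygl* (0.84), *Pcx* (0.82) and *Gstz1* (0.80), over 24 mice and 15142 genes. The 2 sets had no gene in common, and these r are descriptions of the most alike of many genes.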

How the data were processed

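RNA of 23 livers and 24 colons was measured on 48 arrays. The authors deposited raw median spot and local background intensities of both channels, scanner-processed intensities, and log2 ratios (reference over mouse) in a table that matched global loess without background correction. The submitters' processing notes name limma and R 3.0.2. Here a local background brighter than its spot was set to the array median, limma's normexp (offset 50) and global loess were applied, spots marked as outliers were left out, and spots of a probe were averaged. Ratios were turned to mouse over reference. Each tissue was fitted as 4 groups with limma 3.58.1 in R 4.3.3 (lmFit, eBayes), with p-values adjusted over all probes by the Benjamini-Hochberg method, and the call asked for FDR under 0.05 with a fold change over 1.5. Liver was compared with colon over 8 groups with slide as a random block (correlation 0.205) and each sample as a separate mouse. Gene names, coordinates and promoters came from RefSeq (GRCm38.p6). The method was tested on simulated data. The members and lists were chosen with earlier results of these data known. All members were described. Between diets, genes of the other lists with an unadjusted p under 0.05 are named for HH *vs.* LH in the liver only, and not for every list. Those of the signalling list are given as counts. In that comparison 1 endothelial or stellate, 1 goblet cell and 1 lymphoid gene, each lower in LH, are not named. The 5 genes most like the members were ranked by Pearson r. Each slide carried 1 array of each diet group of a tissue, so slide also served as a block. Other alternatives were the background correction, normalization, channel, probe and dim-probe filters, array weights, the mice in the fit, and each mouse left out.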

Additional observations from a re-analysis of the deposited data

Results flagged for a closer look

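Of 80 groups of mice, 10 members in 8 groups of tissue and diet, 3 had a mouse far from the rest by Dixon's criterion, which chance exceeds in about 1 of 20 groups. *Hpx* in the liver was at 3.64 in HH replicate 3, the highest, with the nearest HH mouse at 1.80 and the lowest at 1.21. *Hpx* in the liver was at 1.48 in HL replicate 1, the lowest, with the nearest HL mouse at 2.56 and the highest at 2.64. *Fgg* in the colon was at -6.47 in HL replicate 4, the highest, with the nearest HL mouse at -6.94 and the lowest at -7.17. What set these mice apart was not tested.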

How the results depend on the processing

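The 16 alternatives, of which 11 to 15 could be applied to any 1 result, and leaving out each mouse in turn, did not change the calls: 0 members were called in every diet comparison of both tissues and 10 were called between liver and colon. Diet differences within a tissue that had an unadjusted p under 0.05, and those of liver minus colon, kept their sign. Of the others described, LH minus HH in the liver turned from -0.27 to 0.01 for *Saa1* without HH replicate 3 (-0.42 to 0.01 over the mice left out), and from 0.09 to -0.14 (processed signals) or -0.03 (Cy3 channel alone) for *Hp*. With slide as a replicate block, which pairs the arrays of a slide, 0 members were called and 5 had an unadjusted p under 0.05 for HH *vs.* LH in the liver, where *Fgb* was 0.52 (limma, unadjusted p = 0.00113, adjusted p = 0.125) and *Orm2* -0.53 (unadjusted p = 0.00101). The sizes depended on the processing. Over the settings, LH minus HH in the liver ranged from 0.21 to 0.57 for *Fgb*, from 0.13 to 0.42 for *Fgg*, from 0.33 to 0.52 for *Crp*, from -0.56 to -0.41 for *Orm2* and from -0.50 to -0.33 for *Orm1*. The number of members with an unadjusted p under 0.05 in that comparison was 3 to 6, lowest with the processed signals, and in the colon it was 3 in HH *vs.* LH when local backgrounds were not repaired. The share of all probes under that p in each setting is not given here. These counts, and that with slide as a block, could therefore not be set against it. The causes were not tested. Liver minus colon ranged from -2.40 to -1.52 for *Saa1*, from -2.35 to -1.28 for *Saa2*, from 0.79 to 1.92 for *Lcn2* and from 4.18 to 7.01 for *Crp*, which was dim in the colon. Precision is limited by how many arrays there are.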
